A study of Nothobranchius furzeri with 8 samples.

Results

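The genes described here are 3 chaperone genes of the turquoise killifish Nothobranchius furzeri, DNAJB5 (Nfu_g_1_006784), SERPINH1 (Nfu_g_1_000192) and HSPA12A (Nfu_g_1_006971), out of 26739 genes in the deposited expression tables. They were chosen on their levels in the same 8 brains that are described below, as chaperone genes that stood apart between wild and captive fish, so their differences between these groups are given as a description, with no test. RNAseq was carried out on whole brains of 4 wild males of population A41, aged 39 days post hatch (dph), and of 4 captive males of strain MZM-0410, aged 35 dph. Wild fish were netted in their ponds and dissected on site, and their brains were kept in RNAlater in the cold before freezing, whereas captive fish were singly housed, fed Chironomus larvae and killed fasted, and their brains went straight onto dry ice. The RNA integrity listed by the study was lower in the wild fish. Per the paper, wild fish meet wide daily swings in water temperature, whereas the captive tanks were kept at a set temperature. Genetic background, age, temperature, diet, feeding, capture, housing, storage and RNA integrity therefore all differed between wild and captive. They cannot be told apart from each other in any comparison here.

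Chaperones bind unfolded proteins and keep them from aggregating until they reach their final shape. The J-domain proteins, to which DNAJB5 belongs, hand clients to the chaperones of the HSP70 family and switch on their ATPase, and HSPA12A is a distant member of that HSP70 family. SERPINH1, also known as HSP47, works apart from them: it sits in the endoplasmic reticulum (ER) and is dedicated to procollagen, which it holds in its triple helix until secretion. In rodent heart muscle cells, DNAJB5 forms a complex with the histone deacetylase HDAC4 and with thioredoxin. In a brain, collagen is made chiefly by the cells of the meninges and of blood vessels, while HSP70 and J-domain proteins are at work in every cell.

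Total counts per library were 13923243 to 14541119 in wild and 11814586 to 14393377 in captive fish. A gene was tested where each of the 8 libraries held at least 1 count, which kept 19517 genes, including DNAJB5, SERPINH1 and HSPA12A. Levels are given as CPM (counts scaled to a common library total) after TMM scaling, or as the deposited RPKM (counts over the library total per kilobase of transcript, without TMM) where genes are compared with each other. Values of single fish are always given in the order A41_A_3m, A41_A_5m, A41_A_7m and A41_A_11m for wild, and MZM_0410_124, MZM_0410_125, MZM_0410_126 and MZM_0410_127 for captive fish. A fold change is wild over captive, on the log2 scale where so named. The neuronal marker SNAP25 (Nfu_g_1_017443), a protein of the synaptic release machinery, was abundant in both groups, so the libraries carry the transcripts of brain tissue. It averaged 1502 ± 70.2 CPM in the wild, against 1555 ± 152 CPM in captivity (SD, n = 4 each). Other neuronal markers differed between the groups, as given below.

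DNAJB5 had the largest fold change between the groups of the 3 chaperone genes. In wild fish it reached 545, 556, 521 and 400 CPM, against 75.2, 120, 187 and 117 CPM in captive fish. Each wild brain lay above each captive brain, and the nearest pair, wild fish A41_A_11m and captive fish MZM_0410_126, were still 2.14-fold apart. The means were 506 ± 71.8 CPM in the wild, against 124.9 ± 46.2 CPM in captivity (SD, n = 4 each), a 4.05-fold higher level in wild, or 2.02 on the log2 scale (SE 0.23). These values rested on 5780 to 7960 counts per wild library and on 873 to 2322 counts per captive library, so that counting error was small beside the spread between fish. Ranked by fold change from the top, DNAJB5 stood at place 67 among the 19517 genes tested.

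SERPINH1, the collagen chaperone, was the second gene with more transcript in the wild. Its level was 85.6, 61.6, 65.5 and 58.0 CPM in the wild fish, against 23.9, 20.8, 19.6 and 20.2 CPM in the captive fish. The captive brains were nearly alike, the wild brains were led by fish A41_A_3m, and the groups did not overlap: the lowest wild fish was 2.42-fold above the highest captive fish. On average SERPINH1 was at 67.7 ± 12.3 CPM in the wild, against 21.2 ± 1.92 CPM in captivity (SD, n = 4 each), a 3.20-fold higher level in wild (log2 fold change 1.68, SE 0.13), which placed it at 119 from the top of the tested genes. The study's tables give this gene the killifish symbol SERPINH1B, and it was the only tested gene under the name SERPINH1.

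HSPA12A went the other way. Wild fish had 109.6, 83.4, 92.9 and 82.2 CPM, against 210.9, 149.9, 154 and 159 CPM in captive fish. All 4 captive brains lay above all 4 wild brains, with captive fish MZM_0410_124 well above the rest, and the lowest captive fish was 1.37-fold above the highest wild fish. Mean levels were 92.0 ± 12.7 CPM in the wild, against 168.5 ± 28.5 CPM in captivity (SD, n = 4 each), so that wild brains held 0.546 of the captive level (log2 fold change −0.87, SE 0.13). Its fold change was the smallest of the 3, at place 1987 from the bottom of the tested genes.

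**Figure D1:**
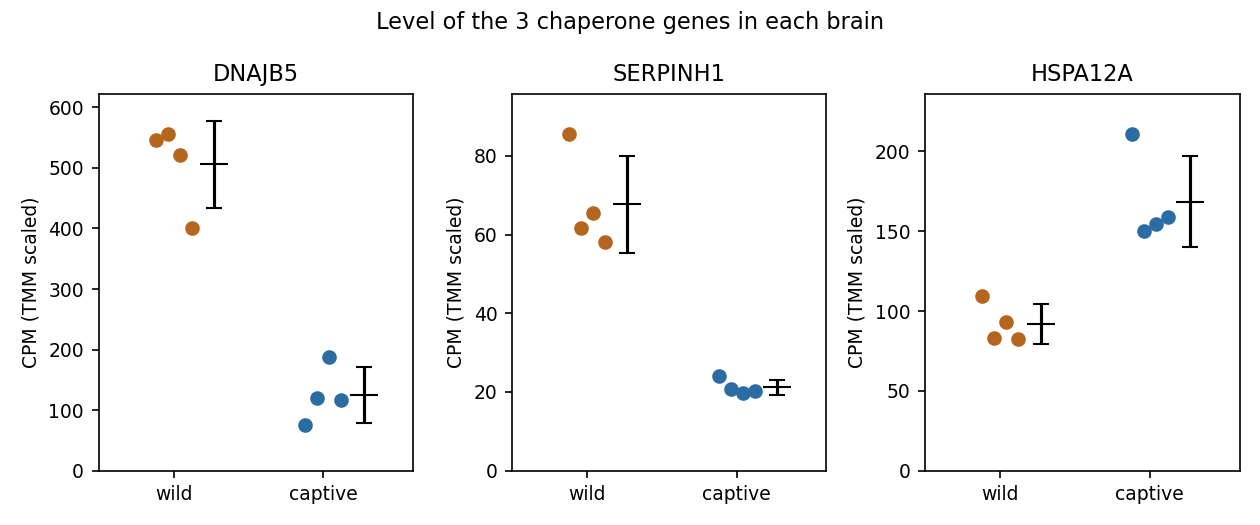
Level of DNAJB5, SERPINH1 and HSPA12A in each brain, in CPM on axes that start at 0, with wild fish on the left and captive fish on the right of each panel, 1 point per fish in the order of their numbers, and the mean ± SD (n = 4 each) beside the points. The wild fish lie above the captive fish for DNAJB5 (506 and 124.9 CPM on average) and SERPINH1 (67.7 and 21.2 CPM), and below them for HSPA12A (92.0 and 168.5 CPM), with no overlap in any panel.

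Groups that do not overlap were common in these libraries: 39.8% of the 19517 tested genes had none. Of the tested genes 3864 (19.8%) were higher and 4251 (21.8%) lower in wild brains at an adjusted p under 0.05 (edgeR's quasi-likelihood test with Benjamini-Hochberg adjustment), and the median log2 fold change over all of them was 0.04. Since the 3 genes were picked for their difference, nothing is read from their place in these counts. HSPA12A has a long transcript (8.604 kb, longer than 94.8% of the tested genes), and the longer transcripts had lower fold changes in these libraries. At its length the trend over all genes was −0.27 on the log2 scale, and with that trend taken out the log2 fold change of HSPA12A was −0.60. For DNAJB5 (2.885 kb) and SERPINH1 (4.147 kb) the trend was 0.01 and −0.05. RNA integrity was lower in the wild fish too, and its part in this trend and in the level of HSPA12A was not tested.

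Per length of transcript, the order of the 3 genes differed between the groups. DNAJB5 came first in both, at 177 ± 26.1 RPKM in wild and 42.9 ± 16.2 RPKM in captive brains. SERPINH1 averaged 16.5 ± 3.08 RPKM in wild and 5.04 ± 0.43 RPKM in captive brains, while HSPA12A averaged 10.8 ± 1.52 RPKM in wild and 19.4 ± 3.19 RPKM in captive brains (SD, n = 4 each). The lowest wild value of SERPINH1, 14.0 RPKM in fish A41_A_11m, was above the highest wild value of HSPA12A, 12.9 RPKM in fish A41_A_3m, and in captive fish the highest SERPINH1 value, 5.67 RPKM, was far below the lowest HSPA12A value, 17.1 RPKM. SERPINH1 thus stood above HSPA12A in wild and below it in captive brains, without overlap in either group. Among all tested genes, DNAJB5 was at the 98.1 percentile of RPKM in wild and the 91.0 percentile in captive brains, SERPINH1 at the 73.8 percentile in wild and the 41.3 percentile in captive brains, and HSPA12A at the 63.0 percentile in wild and the 77.3 percentile in captive brains.

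The spread between fish of a group was itself uneven. Captive DNAJB5 levels ranged 2.49-fold between fish MZM_0410_124 and fish MZM_0410_126, and their SD of 0.54 on the log2 scale was larger than that of 98.1% of the 12992 tested genes that averaged 100 counts or more. In the wild the same gene ranged 1.39-fold, with an SD of 0.22 (79.7 percentile). SERPINH1 was the reverse, with an SD of 0.25 in wild (83.9 percentile) and of 0.13 in captive brains (56.7 percentile), and HSPA12A had SDs of 0.19 in wild and 0.23 in captive brains. Wild fish A41_A_11m had the lowest level of all 3 genes among the wild fish. Captive fish MZM_0410_124 had the highest level of SERPINH1 and HSPA12A among the captive fish, yet the lowest level of DNAJB5.

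The names DNAJB5 and HSPA12A are each carried by a second tested gene in the study's tables, and the pairs behaved differently. For DNAJB5, the study gives the killifish symbol DNAJB5 to the second gene. The gene chosen here has no killifish symbol listed and is named by its human match alone. Which gene is the counterpart of DNAJB5 in other species was not tested. The second DNAJB5 gene (Nfu_g_1_009125) stood at 16.5, 21.0, 22.8 and 32.0 CPM in the wild fish, against 20.0, 23.3, 30.1 and 20.7 CPM in the captive fish. The groups overlapped throughout, and the log2 fold change was −0.03 (SE 0.20, adjusted p = 0.93 by edgeR's quasi-likelihood test with Benjamini-Hochberg adjustment). Its RPKM was 13.5 ± 3.72 in wild and 13.5 ± 2.73 in captive brains (SD, n = 4 each). The gene chosen here had 7.50 to 19.8 times the RPKM of the second gene in wild fish and 2.26 to 3.72 times in captive fish. With both DNAJB5 genes added up, wild brains held 529 ± 65.7 CPM and captive brains 148 ± 50.6 CPM, a log2 ratio of 1.83, so the sum over the name follows the abundant gene.

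The second HSPA12A gene (Nfu_g_1_019320) was rarer and fell in the wild as well. It had 2.55, 1.40, 1.37 and 1.94 CPM in the wild fish, against 11.3, 6.11, 5.31 and 6.57 CPM in the captive fish. No wild fish reached the lowest captive fish, and wild fish A41_A_3m and captive fish MZM_0410_124 were again the highest of their groups, as for the long HSPA12A gene. The log2 fold change was −2.00 (SE 0.30, adjusted p = 0.00051 by edgeR's quasi-likelihood test with Benjamini-Hochberg adjustment). At 0.654 kb this model is much shorter than the 8.604 kb gene, which had 3.22 to 5.14 times its RPKM in wild and 1.42 to 2.21 times in captive fish. Whether it is a separate gene or a fragment was not tested, and reads that fit both models could have been counted for either. Summed over both, HSPA12A was at 93.8 ± 13.1 CPM in the wild, against 176 ± 31.2 CPM in captivity (log2 ratio −0.91).

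**Figure D2:**
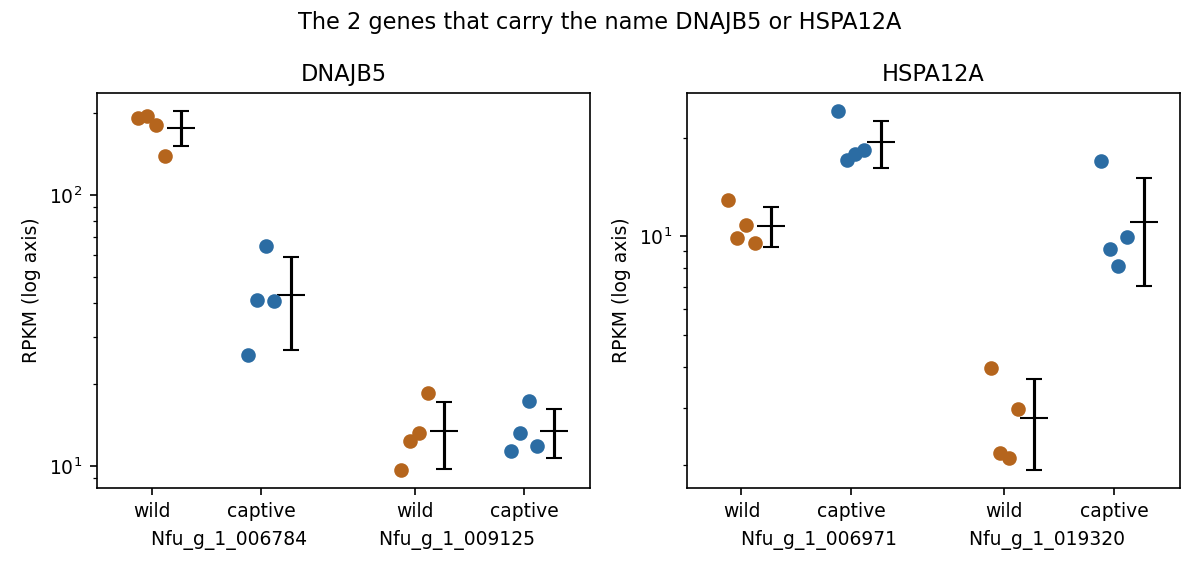
RPKM on a log axis of the 2 tested genes named DNAJB5 (left panel) and HSPA12A (right panel). The gene chosen here is first and the second gene of that name after it. Wild fish are left of captive fish for each gene, 1 point per fish, with the mean ± SD (n = 4 each) beside the points. The second DNAJB5 gene averaged 13.5 RPKM in both groups, while both HSPA12A genes were lower in wild than in captive fish.

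The other J-domain proteins rose in the wild more often than they fell. None rose by as much as DNAJB5, which was picked for its difference. Of 28 other tested J-domain genes, 17 were higher, 5 lower and 6 did not pass, with a median log2 fold change of 0.25 and a range of −0.94 to 0.63. Among all 7344 tested genes that carry a name, 32.5% were higher and 33.4% lower, with a median of 0.02. Many names come only from the study's table of condition-dependent genes, DNAJB5 among them, which was selected on wild and captive fish that include these, so these counts are not independent evidence of a direction. Genes counted here and below as outside that table are those that another of the study's tables names. They may be listed in that table as well, so its selection is not removed from these counts. Outside that table, 9 of 15 J-domain genes were higher and 0 were lower (0 also at an unadjusted p under 0.05 in edgeR's quasi-likelihood test, and 0 with DESeq2). Of the 4571 tested genes so named, 23.6% were higher and 22.9% lower, with a median of 0.04.

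DNAJB1, a heat-inducible J-domain protein and a close relative of DNAJB5, has 2 tested genes, of which the more abundant rose. This gene (Nfu_g_1_007045) had 51.8, 47.4, 48.5 and 50.5 CPM in the wild fish, against 35.2, 33.2, 30.4 and 29.5 CPM in the captive fish. The groups were narrow and apart, at a log2 fold change of 0.63 (with an SE of 0.07, adjusted p = 0.00011, edgeR's quasi-likelihood test with Benjamini-Hochberg adjustment). The other DNAJB1 gene (Nfu_g_1_007621) averaged 15.6 ± 3.17 CPM in the wild, against 15.9 ± 1.21 CPM in captivity, with overlapping groups, and did not pass (log2 fold change −0.02, adjusted p = 0.91 in the same edgeR test). DNAJC19, a subunit of the mitochondrial import motor, rose by 0.60 on the log2 scale, DNAJC8, a splicing-associated protein, by 0.50, and DNAJC7, a co-chaperone that binds both HSP70 and HSP90, by 0.32. On the other side, a low-count gene for the mitochondrial DNAJA3 (Nfu_g_1_004669, 7.76 CPM in the wild, against 14.9 CPM in captivity, log2 fold change −0.94), the endosomal DNAJC13 (−0.55) and both genes for DNAJC16 (−0.49 for Nfu_g_1_020967 and −0.30 for Nfu_g_1_010392) fell. The more abundant DNAJA3 gene (Nfu_g_1_019422) rose, to 52.3 ± 4.15 CPM in the wild, against 42.3 ± 2.69 CPM in captivity (log2 fold change 0.31). DNAJC6, or auxilin, which strips clathrin from vesicles and had the highest mean count of the list, averaged 287 ± 15.4 CPM in the wild, against 304 ± 2.24 CPM in captivity and did not pass (log2 fold change −0.08, adjusted p = 0.21 in the same edgeR test).

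The HSP70 family, the partners of the J-domain proteins, did not share that direction. Of 11 other tested genes of the HSP70 and HSP110 family, 2 were higher, 4 lower and 5 did not pass, and the median log2 fold change was −0.11. Over all tested genes with a name, 32.5% were higher and 33.4% lower, so no fall of the family is read from these counts. The most abundant of them, Nfu_g_1_005309, belongs to the cytosolic HSP70 genes. The study's tables pair it with human HSPA6 but give it the killifish symbol HSPA8. It had 400.0 ± 17.4 CPM in the wild, against 487 ± 28.4 CPM in captivity (SD, n = 4 each), and fell by 0.28 on the log2 scale. A second, rare gene under the same human name and killifish symbol (Nfu_g_1_000519) was at 4.06 ± 1.15 CPM in the wild, against 1.89 ± 0.29 CPM in captivity (log2 fold change 1.10). HSPA14, a ribosome-associated member, rose by 0.51. The fallers also included the ER chaperone HYOU1 (−0.29) and a short model of the ER chaperone HSPA5 (Nfu_g_1_006417, 0.327 kb, −0.34). The longer and more abundant HSPA5 gene (Nfu_g_1_006740) was at 86.1 ± 5.99 CPM in the wild, against 87.5 ± 4.87 CPM in captivity, and did not pass (−0.02). The call of the short HSPA5 model had an adjusted p of 0.041 (edgeR's quasi-likelihood test with Benjamini-Hochberg adjustment) and was lost when any fish but MZM_0410_127 was left out (−0.38 to −0.24), with upper quartile scaling (−0.29) and with limma (−0.30). The short HSPA12A gene described above is the fourth of them. Outside the table of condition-dependent genes 1 of 9 genes was higher and 3 were lower, beside 23.6% higher and 22.9% lower of all tested genes so named.

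Around HSP90, small rises of co-chaperones stood beside a deep fall of FKBP5. All 10 tested genes of the HSP90 system passed, 7 higher and 3 lower, with a median log2 fold change of 0.28. Outside the table of condition-dependent genes 7 of 8 were higher and 1 was lower. The shares over all tested genes with a name were 32.5% higher and 33.4% lower, and 23.6% and 22.9% outside that table. FKBP4 (log2 fold change 0.41), an immunophilin of steroid receptor complexes, AHSA1 (0.36), which stimulates the ATPase of HSP90, CDC37 (0.34), which brings protein kinases to it, and CHORDC1 (0.31) rose. FKBP5, the immunophilin that glucocorticoids induce, had 23.8, 17.6, 17.8 and 72.0 CPM in the wild fish, against 201, 251, 362 and 247 CPM in the captive fish. Every captive fish was far above every wild fish, and wild fish A41_A_11m was the highest wild fish, at a log2 fold change of −3.01 (with an SE of 0.44, adjusted p = 0.00051, edgeR's quasi-likelihood test with Benjamini-Hochberg adjustment). Without A41_A_11m it was −3.75. HSP90B1, the HSP90 of the ER, fell by 0.36. HSP90AB1, the main cytosolic HSP90 and the most abundant gene of the list, was at 2123 ± 168 CPM in the wild, against 2426 ± 35.9 CPM in captivity (log2 fold change −0.19, adjusted p = 0.021 in the same test), a call that was lost without A41_A_5m (−0.19), A41_A_7m (−0.15) or MZM_0410_125 (−0.19), with upper quartile scaling (−0.14) and with limma (−0.17).

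More of the remaining cytosolic and mitochondrial chaperones rose than fell, but mostly among genes named only through the table of condition-dependent genes. Of 15 small heat shock proteins, chaperonins, BAG proteins and heat shock factors, 8 were higher, 1 was lower and 6 did not pass, with a median log2 fold change of 0.23. Outside that table only 2 of 8 were higher and 1 was lower, beside 23.6% higher and 22.9% lower of all tested genes named outside it, so no lean is read from them. HSF2, a heat shock transcription factor, rose by 0.58, BAG2, an inhibitor of the ubiquitin ligase CHIP, by 0.47, and the chaperonin subunits CCT6A and CCT3 by 0.24 and 0.23. CCT4, the most abundant gene of this list, averaged 330 ± 12.2 CPM in the wild, against 308 ± 11.7 CPM in captivity and did not pass (log2 fold change 0.10), though it did with upper quartile scaling (0.16) and with limma (0.13). BAG5, a BAG-domain regulator of HSP70, was the lower gene, at 3.18, 3.84, 3.09 and 4.09 CPM in the wild fish, against 14.6, 15.5, 17.8 and 16.6 CPM in the captive fish. These groups lay far apart, at a log2 fold change of −2.18 (with an SE of 0.13, adjusted p = 1.8e-06, edgeR's quasi-likelihood test with Benjamini-Hochberg adjustment).

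Added together, 34 of the 64 other chaperone genes of these 4 lists (53.1%) were higher in the wild and 13 (20.3%) were lower, with a median log2 fold change of 0.22. Of all tested genes with a name, 32.5% were higher and 33.4% lower. The names of 24 of the 64 come only from the table of condition-dependent genes, so these counts are not independent evidence of a direction. Among the 40 of them named outside that table, 19 (47.5%) were higher and 5 (12.5%) were lower, with a median of 0.20, beside 23.6% higher and 22.9% lower of all tested genes named outside it. The summed CPM of each list, members left out, went both ways. The HSP90 system had 3296 to 3637 in the wild, against 3724 to 3893 in captivity, and the HSP70 family 1137 to 1244, against 1277 to 1347. J-domain genes had 1939 to 2003 in the wild, against 1832 to 1919 in captivity. The small heat shock proteins and partners had 1634 to 1649, against 1401 to 1495. More genes called higher thus does not mean more chaperone transcript. DNAJB5, at 2.02, lay above the range of all 64, whose highest value was 1.10. It was picked for its difference in these same brains, so nothing is read from that place.

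**Figure D3:**
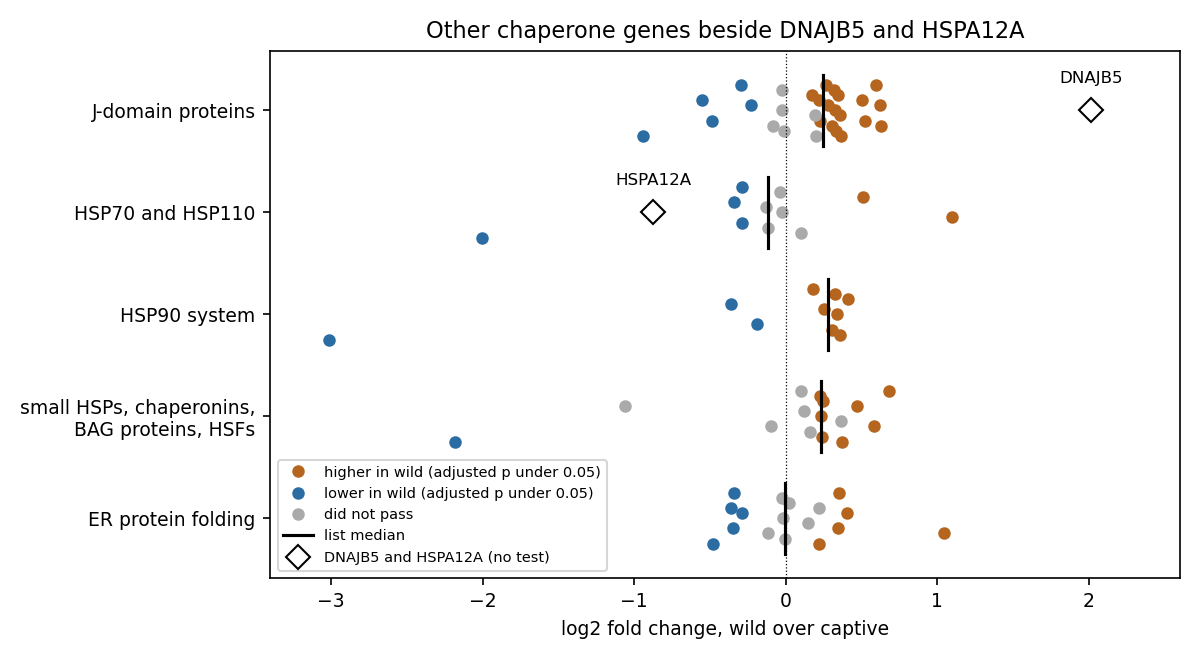
Log2 fold change, wild over captive, of each other tested gene of 5 chaperone lists, coloured by its call (edgeR's quasi-likelihood test, adjusted p under 0.05), with a vertical bar at each list's median and open diamonds for DNAJB5 and HSPA12A, which have no test. DNAJB5 (2.02), which was picked for its difference, lies to the right of every other gene. The points furthest to the left are FKBP5 (−3.01), BAG5 (−2.18) and the short HSPA12A gene (−2.00). Genes of 2 lists, such as HYOU1, are drawn in both.

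SERPINH1 works in the ER, and the general folding genes of that compartment did not lean either way. Of 17 tested genes of ER protein folding, 5 were higher, 5 lower and 7 did not pass, and their median log2 fold change was 0.00. Among all tested genes with a name, 32.5% were higher and 33.4% lower. Calnexin (CANX), the membrane lectin that retains unfolded glycoproteins, fell to 123 ± 3.58 CPM in the wild, against 171 ± 16.6 CPM in captivity (log2 fold change −0.48). The other fallers that were named are HSP90B1, HYOU1 and the short HSPA5 model, given above. FKBP14, a prolyl isomerase that acts on collagen, rose by 1.04 on the log2 scale, CRELD2, a protein induced by ER stress, by 0.41, FKBP11 by 0.35, and the ER J-domain protein DNAJC1 by 0.35. The CRELD2 call was lost without A41_A_3m, A41_A_5m, MZM_0410_125 or MZM_0410_127 (0.33 to 0.37). Outside the table of condition-dependent genes, 4 of 14 were higher and 3 were lower.

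Few of the collagen chains, the clients of SERPINH1, rose. Of 23 tested collagen chains, 2 were higher in the wild, 6 were lower and 15 did not pass, with a median log2 fold change of −0.12. Outside the table of condition-dependent genes 1 of 19 was higher and 4 were lower. All tested genes with a name had 32.5% higher and 33.4% lower, and 23.6% and 22.9% outside that table, so no fall of the chains is read from these counts. Many of these transcripts are long, and longer transcripts had lower fold changes in these libraries. With the length trend removed, more chains were called higher, as given further below. COL14A1 (Nfu_g_1_010125, log2 fold change −1.21), COL4A5 (−1.54), COL5A3 (Nfu_g_1_007670, −0.73) and COL27A1 (−0.70) fell, of which COL4A5 is a chain of the basement membrane. Another gene that the study pairs with human COL5A3 (Nfu_g_1_013377, 0.20) has the killifish symbol COL11A1A, so it may not be a copy, and did not pass. COL6A1, a chain of the microfibrils around cells, rose to 34.4 ± 9.58 CPM in the wild, against 16.8 ± 1.82 CPM in captivity (log2 fold change 1.03). The other higher call, COL28A1 (Nfu_g_1_011093), came from 2 fish: it was at 9.33, 8.66, 0.21 and 0.28 CPM in the wild fish, against 0.26, 0.15, 0.08 and 0.07 CPM in the captive fish (log2 fold change 4.99, adjusted p = 0.014 by edgeR's quasi-likelihood test with Benjamini-Hochberg adjustment). It was 4.39 without A41_A_3m, and with limma it was 2.08 and did not pass.

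The most abundant collagen chain varied between fish far more than SERPINH1 did. The study pairs this chain (Nfu_g_1_023149) with human COL1A2 and gives it the killifish symbol COL1A1B. It was at 278, 40.6, 48.9 and 661 CPM in the wild fish, against 76.3, 187, 308 and 139 CPM in the captive fish. Both the highest and the lowest fish were wild, the groups overlapped, and the difference did not pass (log2 fold change 0.53, SE 0.79, adjusted p = 0.62, edgeR's quasi-likelihood test with Benjamini-Hochberg adjustment). Over all 23 chains the summed level was 1080, 465, 469 and 1956 CPM in the wild fish, against 594, 842, 1121 and 765 CPM in the captive fish. Wild fish A41_A_11m thus had the highest sum of these 23 chains and the lowest SERPINH1 level of the wild fish. Wild fish A41_A_5m and A41_A_7m, with a lower sum of these chains than any captive fish, had 61.6 and 65.5 CPM of SERPINH1, against 19.6 to 23.9 CPM in captive fish. Collagen genes without a name in the study's tables are not in the sums, and whether SERPINH1 follows its clients was not tested. These sums mostly follow a few chains and not the whole list. In A41_A_11m, Nfu_g_1_023149 (661 CPM), COL1A2 Nfu_g_1_013298 (475 CPM) and COL10A1 Nfu_g_1_022498 (386 CPM) made up most of the sum. The same genes were at 40.6, 35.3 and 1.54 CPM in A41_A_5m. What set these chains apart between fish was not tested.

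The enzymes that modify and process procollagen were divided. Of 20 tested genes of collagen folding and modification other than SERPINH1, 9 were higher, 6 lower and 5 did not pass, with a median log2 fold change of 0.19. Outside the table of condition-dependent genes 7 of 14 were higher and 2 were lower. Over all tested genes with a name these shares were 32.5% higher and 33.4% lower, and 23.6% and 22.9% outside that table. Among the higher genes were FKBP14, P3H4 (log2 fold change 0.89), a partner of the lysyl hydroxylases, PPIB (0.26), the cyclophilin of the ER, and a gene for the prolyl hydroxylase P4HA1 (Nfu_g_1_002920, 0.45), whereas another P4HA1 gene (Nfu_g_1_000853, −1.05) fell. These P4HA1 genes stand here to show opposite directions under a single name, and were picked after their values were seen. SPARC, a secreted collagen-binding protein, rose by 0.31. The other fallers included ADAMTS2 (−0.98) and BMP1 (−0.52), which cut the propeptides off, COLGALT1 (−0.94), which adds galactose in the ER, and MIA3 (−0.39, and −0.13 without passing once the length trend was removed), which loads procollagen for export. PPIB, the most abundant of the list, averaged 285 ± 6.84 CPM in the wild, against 238 ± 11.3 CPM in captivity (SD, n = 4 each).

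**Figure D4:**
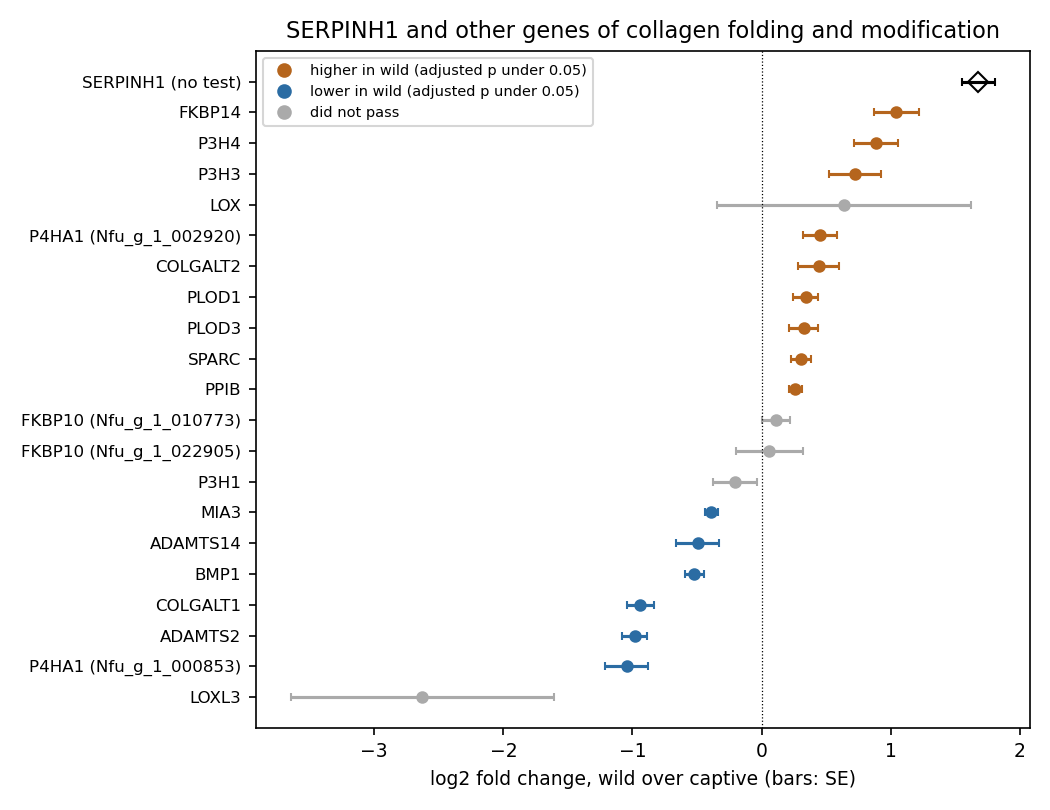
Log2 fold change, wild over captive, with its SE, of SERPINH1 (open diamond, no test) and of the 20 other tested genes of collagen folding and modification, coloured by their call (edgeR's quasi-likelihood test, adjusted p under 0.05). SERPINH1 (1.68), which was picked for its difference, has the highest value, followed by FKBP14 (1.04) and P3H4 (0.89). ADAMTS2 (−0.98) and COLGALT1 (−0.94) are among the lower genes, and the wide bars belong to genes that varied between fish.

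Among the partners of DNAJB5 known from rodent heart muscle, both HDAC4 genes fell. The gene paired with human thioredoxin was called higher, though not in every setting. Which DNAJB5 gene has such partners in killifish was not tested. Of 11 tested genes of class IIa histone deacetylases, thioredoxins and MEF2 factors, 1 was higher, 6 were lower and 4 did not pass, with a median log2 fold change of −0.20. Among all tested genes with a name, 32.5% were higher and 33.4% lower. Outside the table of condition-dependent genes, 1 of 6 was higher and 1 was lower. The first HDAC4 gene (Nfu_g_1_014268) had 18.7, 19.5, 23.6 and 23.1 CPM in the wild fish, against 63.0, 68.6, 62.6 and 67.3 CPM in the captive fish. Both groups were tight and wide apart (log2 fold change −1.62, SE 0.09, adjusted p = 8.8e-07, edgeR's quasi-likelihood test with Benjamini-Hochberg adjustment). A second HDAC4 gene (Nfu_g_1_013999) fell by 0.65, and HDAC5 fell to 234 ± 18.6 CPM in the wild, against 382 ± 7.42 CPM in captivity (log2 fold change −0.71). TXNIP, which binds and inhibits thioredoxin, fell by 0.62. The gene that the study pairs with human thioredoxin (TXN, Nfu_g_1_003632) has the killifish symbol TXNDC2, so it may not be thioredoxin itself. It was the only higher gene of the list, at 101 ± 8.71 CPM in the wild, against 83.3 ± 8.84 CPM in captivity, with overlapping groups (log2 fold change 0.28, adjusted p = 0.027 in the same edgeR test). That call was lost without A41_A_3m, A41_A_7m, MZM_0410_125, MZM_0410_126 or MZM_0410_127 (0.23 to 0.26), and with the length trend removed (0.23).

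Some markers of cell types also differed between wild and captive brains, and in bulk tissue fewer cells of a type and less RNA per cell cannot be told apart. Of all tested genes with a name, 32.5% were higher and 33.4% lower, so called genes are common in any list of named genes. Fibroblast and meningeal markers, from the cells that make most collagen, were lower for all 3 tested genes (PDGFRA, FN1 and FBLN2), with a summed level of 114 to 131 CPM in the wild, against 157 to 200 CPM in captivity. Of 6 tested markers of endothelium and mural cells 1 was higher and 3 were lower, and their sum was 269 to 304 CPM in the wild, against 343 to 352 CPM in captivity. These sums rest on few genes. NOTCH3 (Nfu_g_1_007618) made up much of the endothelial and mural sum, at 126.7 CPM in the wild, against 180.5 CPM in captivity. A PECAM1 gene (Nfu_g_1_007108) was the higher one (log2 fold change 0.69). Outside the table of condition-dependent genes, 1 of 3 endothelial and mural genes was higher and 0 were lower. Of 2 fibroblast and meningeal genes there, 0 were higher and 2 lower. All tested genes so named had 23.6% higher and 22.9% lower. Of 21 tested neuronal marker genes 4 were higher and 9 lower (sum 6489 to 7040 CPM in the wild, against 6983 to 7647 CPM in captivity). GAD2 fell furthest, to 23.5 ± 4.46 CPM in the wild, against 196 ± 37.3 CPM in captivity (log2 fold change −3.06). SYN1 fell by 1.99, and a second SNAP25 gene (Nfu_g_1_022084) rose most, by 0.36. Of 8 markers of radial glia and astrocytes 5 were higher and 2 lower (sum 5339 to 7320 CPM in the wild, against 3991 to 5408 CPM in captivity). The part of cell types in the levels of DNAJB5, SERPINH1 and HSPA12A was not tested.

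Some oligodendrocyte markers moved in the direction of HSPA12A. MAG (Nfu_g_1_010993), an adhesion protein of myelin, had 135, 143, 151 and 128 CPM in the wild fish, against 354, 279, 282 and 252 CPM in the captive fish. An MBP gene (Nfu_g_1_012286), for the myelin basic protein, had 856, 654, 813 and 707 CPM in the wild fish, against 1343, 928, 921 and 1028 CPM in the captive fish. Both fell, by 1.07 and 0.48 on the log2 scale, without overlap between the groups, and captive fish MZM_0410_124 was the highest for both, as for HSPA12A. The most abundant MBP gene (Nfu_g_1_016795) averaged 1333 ± 313 CPM in the wild, against 1579 ± 285 CPM in captivity, overlapped and did not pass (log2 fold change −0.24, adjusted p = 0.28, edgeR's quasi-likelihood test with Benjamini-Hochberg adjustment), nor did the rare Nfu_g_1_016883 (−0.22). Other markers of the list went the opposite way, with OLIG1 (log2 fold change 0.40), a transcription factor of the lineage, and CNP (0.35), a myelin enzyme, higher in the wild. Their part in the level of HSPA12A was not tested. No tested gene matched the microglia list by name, and the markers of erythrocytes (3 tested, 1 higher and 2 lower) and of skeletal muscle (3 tested, 1 higher and 1 lower) were few.

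Profiles over the 8 fish were compared between each chaperone gene and 6542 genes that carry a name and averaged 100 counts or more, by the root-mean-square difference of log2 CPM after each gene was centred on its own mean. The genes nearest to DNAJB5 were NPAS4 (difference 0.22), an activity-dependent transcription factor of neurons, EGR1 (0.44), ITM2C (0.46), JUNB (0.47) and FABP4 (0.47). NPAS4 averaged 304 ± 43.6 CPM in the wild, against 69.1 ± 11.2 CPM in captivity, and shared with DNAJB5 the lowest wild value in fish A41_A_11m and the lowest captive value in fish MZM_0410_124. SERPINH1 was nearest to JUNB (0.07), an immediate early transcription factor at 131 ± 30.4 CPM in the wild, against 42.3 ± 1.74 CPM in captivity, followed by PPP1R3C (0.22), a regulator of glycogen synthesis, FAM167A (0.23), GYG1 (0.27), the primer of glycogen, and EGR1 (0.28). EGR1 and JUNB, both immediate early genes, were thus near to DNAJB5 and to SERPINH1.

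HSPA12A was nearest to DYSF (0.11), a membrane repair protein, CDH19 (0.11), a cadherin, NIPAL2 (0.11), USP43 (0.14) and SLC22A23 (0.14). All 5 were lower in the wild and highest or near highest in captive fish MZM_0410_124, and CDH19 for example averaged 24.1 ± 3.43 CPM in the wild, against 43.2 ± 3.54 CPM in captivity (SD, n = 4 each). Such likeness follows largely from the step between wild and captive, over 8 fish that share their libraries and depth, and is given as a description.

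With each gene centred within its group, so that the step between wild and captive was taken out, other genes came nearest. They included OARD1 (0.17) and ZFP36L2 (0.19) for DNAJB5, and were ID1 (0.05), ZFP36L1 (0.06) and NID1 (0.06), a basement membrane protein, for SERPINH1. For HSPA12A they were MBP (Nfu_g_1_012286, 0.06), GLRX2 (0.06) and TYSND1 (0.06). This MBP gene averaged 758 ± 93.5 CPM in the wild, against 1055 ± 198 CPM in captivity, and its highest fish, A41_A_3m and MZM_0410_124, were the highest for HSPA12A too.

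**Figure D5:**
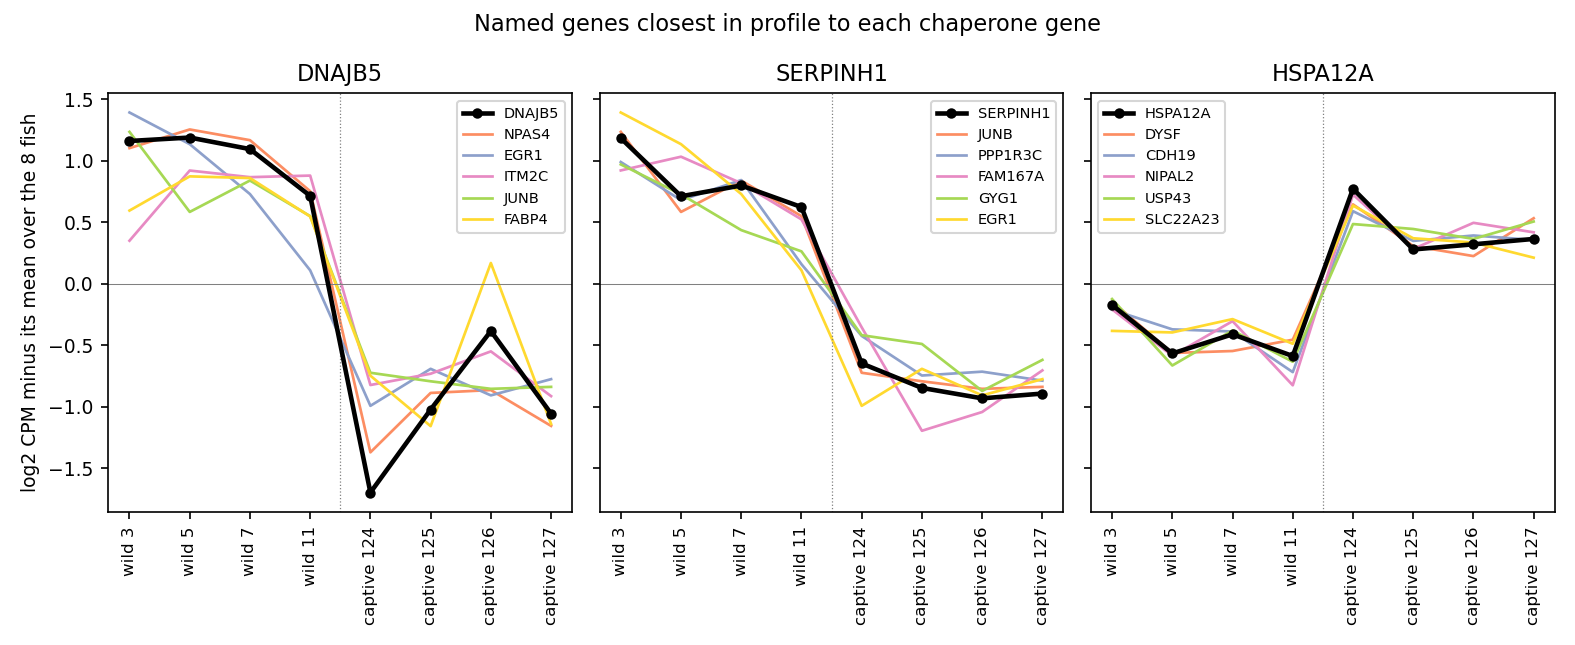
Log2 CPM minus its mean over the 8 fish for DNAJB5, SERPINH1 and HSPA12A (black, with points) and for the 5 named genes with the smallest root-mean-square difference from each (coloured lines), wild fish left of captive fish. Lines only join the values of a gene, and the closest pair is SERPINH1 with JUNB (0.07), while the captive fish spread widely for DNAJB5.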

How the data were processed

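Whole-brain RNA of 8 male fish was made into stranded poly(A) libraries. Per the labels and the study's methods, the authors used bcl2fastq 2.20.0.422 for conversion, TopHat2 2.1.0 for mapping and featureCounts 1.6.5 for counting reads per gene. The authors deposited whole counts per gene, RPM (counts scaled to the column total) and RPKM (RPM per kilobase of transcript). RPM equalled counts over column totals to within 4.97e-15, and RPM over RPKM gave the lengths. Replicates differed beyond counting error (chi-square per gene 7.44 to 16.3).

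The comparison of the wild with the captive brains was made in edgeR 4.0.16 (quasi-likelihood F-test on counts, TMM, at least 1 count in all 8 libraries, Benjamini-Hochberg over all genes, threshold 0.05, R 4.3.3). The common biological coefficient of variation was 0.16. The test was also run on simulated counts with the same variation for every gene, few changed genes and no length trend. These data differ in all of these, so that run does not vouch for the calls here. The p-values weigh the difference between the groups against the spread between fish within a group. The labels do not state that fish are independent by family or pond, and the p-values may be too small if they are not. Log2 CPM used a prior count of 2. Alternatives were RLE and upper quartile scaling, other count filters, DESeq2 1.42.0, limma 3.58.1 on log2(RPM + 0.5), removal of the length trend, and leaving out each fish. Figures were drawn with Python 3.11.15 and matplotlib 3.10.9.

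Members and lists were chosen with earlier results of these data known. Lists were written from general knowledge and matched by the names in the study's tables, where a name may cover several genes. Named genes are the 3 members and their copies, and for each list up to 4 called genes per direction, by smallest p, and the most counted gene. The 5 genes nearest in profile are named too, and 3 within groups. Genes read between copies are uncertain. Sequences and coordinates were not analysed here. A few genes that the rule would name, and list summaries resting on them, are not reported here.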

Additional observations from a re-analysis of the deposited data

Results flagged for a closer look

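Among 112 groups of 4 fish examined (56 genes, wild and captive), 9 held a fish whose distance to the nearest other fish exceeded Dixon's 95% critical value, as a share of the group's range, where chance flags about 1 in 20 groups. The CPM of that fish is given with the range of the other 3. HSPA12A stood at 210.9 in captive fish MZM_0410_124 (149.9 to 159 in the others), and DNAJC16 (Nfu_g_1_020967) at 170.1 in the same fish (156.7 to 157.1). TXNIP stood at 100.1 in captive fish MZM_0410_126 (64.9 to 70.1). Among wild fish, DNAJC8 stood at 93.6 in fish A41_A_3m (83.5 to 85.0) and HSPA14 at 26.7 in fish A41_A_7m (19.3 to 20.1). Wild fish A41_A_11m was apart for DNAJC7 at 140.6 (146.1 to 146.8), FKBP5 at 72.0 (17.6 to 23.8), COL5A3 (Nfu_g_1_007670) at 19.1 (16.6 to 16.8) and ADAMTS2 at 17.8 (14.0 to 14.5). Of these values only that of DNAJC7 was the lowest of its group.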

How the results depend on the processing

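No paired analysis was possible because the fish numbers in the labels are not shared between the groups. Without each fish in turn, the log2 fold change was 1.83 to 2.27 for DNAJB5, 1.55 to 1.75 for SERPINH1 and −0.97 to −0.76 for HSPA12A. Other scalings, filters and tests gave 1.99 to 2.1, 1.66 to 1.74 and −0.90 to −0.82 for the same genes, and removal of the length trend gave −0.60 for HSPA12A. Of the called genes 47.6% were higher in wild, against 57.1% with upper quartile scaling (5046 higher, 3788 lower) and 57.3% with the length trend removed (4624 higher, 3449 lower). Leaving out a fish gave 2933 to 3685 higher and 3845 to 4124 lower genes.

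Without names that come only from the table of condition-dependent genes, fewer list genes were tested: J-domain 9 higher and 0 lower, HSP70 family 1 higher, HSP90 system 1 lower, small heat shock proteins and partners 2 higher, ER folding 3 lower, collagen chains 1 higher, collagen folding 2 lower, class IIa HDACs and partners 1 lower. ER folding had 3 lower genes with upper quartile scaling and with limma. Collagen chains had 1 higher gene with limma and with edgeR's own filter, and 4 with the length trend removed. Without each fish in turn, ER folding had 3 to 5 higher and 3 to 4 lower genes, collagen chains 2 to 4 higher, collagen folding 5 to 8 higher (5 without MZM_0410_127), and class IIa HDACs and partners 0 to 1 higher.

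Directions turned only for genes that had not passed. The second DNAJB5 gene (Nfu_g_1_009125) had a log2 fold change of 0.028 with upper quartile scaling and of −0.22 to 0.11 without single fish, DNAJC6 (Nfu_g_1_002406) of 0.10 with the length trend removed, and COL1A2 Nfu_g_1_023149 of −0.15 with limma and of −0.54 (without A41_A_11m) to 0.92 without single fish. The cause was not tested. Each library held at least 244 counts of each of the 3 chaperone genes, so depth limited their values less than the spread between fish, while genes near 1 CPM rest on few reads.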
